A study of Mus musculus with 6 samples.

Results

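The 8 genes Srebf1, Srebf2, Scap, Mbtps1, Insig1, Insig2, Stard4 and Mylip, which control the sterol-sensing transcription factors called SREBPs or handle sterol transfer and the LDL receptor family, were followed in cultured mdx myoblasts. They were picked by gene symbol from the 47069 genes of the count table, and all 8 were among the 14165 genes that passed the filter on low counts and were tested. The mdx mouse lacks dystrophin and is a model of Duchenne muscular dystrophy. Its muscle stem cells were isolated by FACS, grown as myoblasts in serum and FGF2, and given vehicle (DMSO in aqueous buffer, 3 libraries) or 10 μM PSB-KD107 (3 libraries), a synthetic agonist of the receptor Gpr18. The sample records give a treatment of 2 days, whereas the study itself describes a shorter, overnight treatment. The methods state that the cells came from 3 different mice. Both groups were mdx, no wild-type cells entered the comparison, and the cells were studied in culture, away from muscle fibers. The question was whether PSB-KD107 changed the RNA of these genes.

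SREBPs are made as membrane proteins of the endoplasmic reticulum. Srebf1 encodes the forms best known for fatty acid synthesis and Srebf2 the form best known for cholesterol synthesis and uptake. When membrane sterols are low, the escort protein SCAP carries SREBP to the Golgi, where the site-1 protease (Mbtps1) and then the site-2 protease (Mbtps2) release the part that enters the nucleus, whereas when sterols are high INSIG proteins hold SCAP and SREBP back. These steps act on protein, which was not measured here. Insig1 and Stard4 are known SREBP targets, and Mylip, known as IDOL, is a target of the oxysterol receptors called LXRs.

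Total counts per library ranged from 30917613 to 48756794, and levels are given as CPM, counts scaled to the size of the library by the TMM method. Summed myogenic markers (Myod1, Myf5, Pax7, Des and others, 9 of 10 tested) were between 6823 and 7186 CPM with vehicle and between 6717 and 7150 CPM with PSB-KD107. The sum hides differences between libraries of a group. In libraries 1, 2 and 4, Myod1 was at 515, 956 and 1060 CPM with vehicle and at 399, 765 and 523 CPM with PSB-KD107. Myf5 was at 3.57, 18.6 and 21.3 CPM with vehicle and at 4.23, 40.9 and 26.8 CPM with PSB-KD107. Des, the largest part of the sum, was instead highest in library 1 of each group (3652 and 3932 CPM). Summed fibroblast markers were at most 5.05 CPM with vehicle and 10.7 CPM with PSB-KD107, summed leukocyte markers at most 4.90 and 6.60 CPM, and summed endothelial markers at most 1.40 and 1.13 CPM. Dpt, Ptprc, Adgre1, Lyz2, Kdr and Emcn had at most 3 counts in each of the 6 libraries. In bulk RNA, fewer cells of a type and less RNA per cell cannot be told apart. Of the 9 myogenic markers tested, 3 had a positive and 6 a negative log2 fold change, and groups did not overlap for 1, Pax7. This muscle stem cell marker was 59.5 ± 9.47 CPM with vehicle and 32.0 ± 4.55 CPM with PSB-KD107 (SD, n = 3). Its adjusted p was 0.209 in edgeR and 0.00192 in DESeq2. Whether the lower Pax7 had a part in the results below was not tested.

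No member passed the test across all genes. In edgeR (quasi-likelihood test), an adjusted p under 0.05 was found for 0 of the 8 members and 0.00% of the 14165 genes, and the smallest adjusted p of any gene was 0.0738. With DESeq2, 0 of the 8 members were called, against 2.10% of genes called higher and 0.667% called lower. By direction alone, 3 members were higher and 5 lower, against 49.9% and 50.1% of genes tested. At an unadjusted p under 0.05 in edgeR, there were 4 members, against 9.40% of all genes tested. Insig1 and Stard4 were higher at this threshold, against 6.47% of genes, and Mbtps1 and Mylip were lower, against 2.93%. DESeq2 and limma-voom also placed 4 members under that unadjusted threshold, against 10.5% and 9.04% of the genes to which each gave an adjusted p. This count depended on single libraries, being 1 without vehicle library 2, vehicle library 4, PSB-KD107 library 1 or PSB-KD107 library 2. Since the members were chosen with earlier results of these data known, their counts beside all genes are descriptions and not a test. The groups did not overlap for 1 member that was higher (Stard4), against 9.20% of genes tested, and for 2 that were lower (Mbtps1 and Mylip), against 6.59% (15.8% in either direction). For 3 libraries against 3, an exact two-sided permutation test cannot give a p below 0.1.

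**Figure D1:**
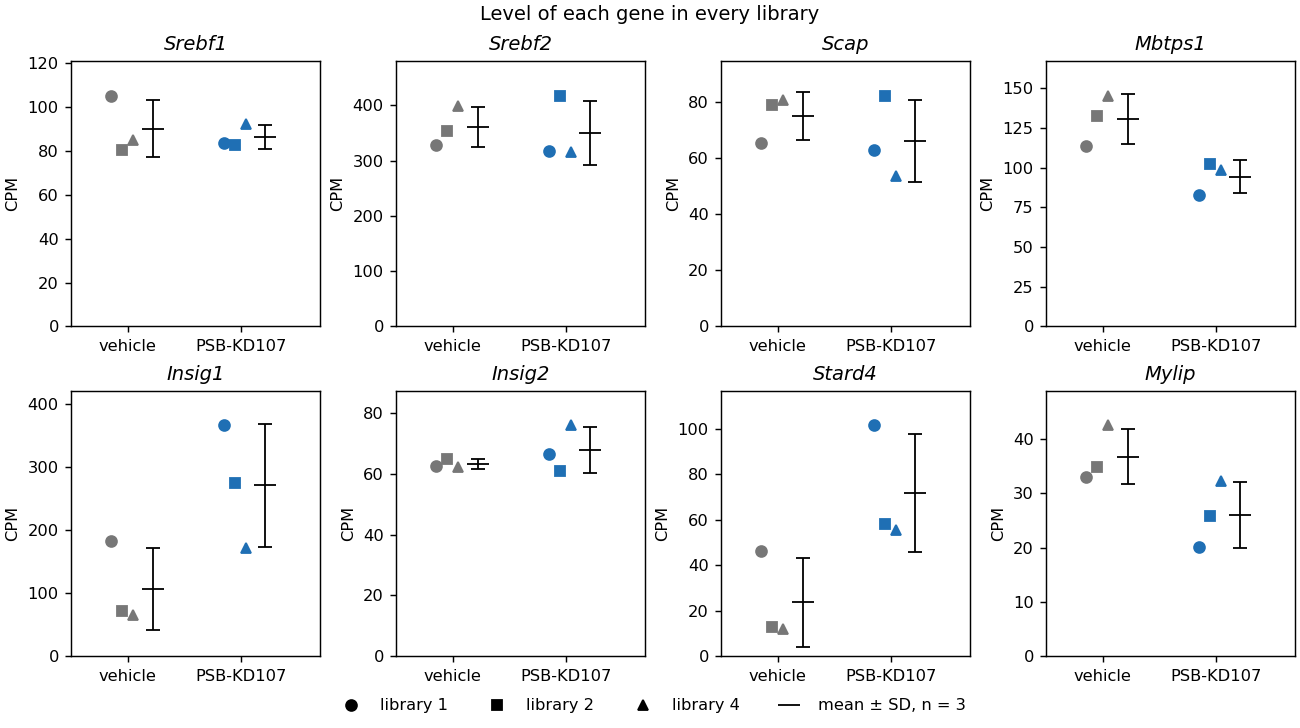
Level of each of the 8 genes in every library, in CPM on a linear axis that starts at 0. Points are single libraries (circle 1, square 2, triangle 4; gray vehicle, blue PSB-KD107), and bars are the mean ± SD of 3 libraries. Stard4 lies higher in each PSB-KD107 library than in any vehicle library, Mbtps1 and Mylip lie lower, and for Insig1 vehicle library 1 lies just above PSB-KD107 library 4.

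The transcription factors themselves had log2 fold changes near 0, with intervals that span it. Srebf1 (ENSMUSG00000020538, GRCm38 chr11:60199089-60222581, minus strand) was at 105, 80.4 and 84.8 CPM in vehicle libraries 1, 2 and 4 and at 83.3, 82.8 and 92.4 CPM in PSB-KD107 libraries 1, 2 and 4. The highest value was in vehicle library 1, and the groups overlapped. The log2 fold change was -0.06 (SE 0.13, 95% interval -0.38 to 0.25, edgeR adjusted p = 0.898), an interval from 0.771 to 1.19 times the vehicle level. Srebf1 shares 109 exon bases with Rai1 on the opposite strand, and the strand setting of the counting is not given in the sources used here.

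Srebf2 (ENSMUSG00000022463, chr15:82147181-82205379, plus strand) was at 328, 353 and 399 CPM with vehicle and at 318, 418 and 315 CPM with PSB-KD107. PSB-KD107 library 2 was the highest of the 6 and the other two treated libraries were the lowest, so that the groups overlapped. The log2 fold change was -0.04 (SE 0.15, 95% interval -0.41 to 0.33, edgeR adjusted p = 0.947), or 0.753 to 1.26 times the vehicle level. The ratio of Srebf1 to Srebf2 within a library was 0.320, 0.228 and 0.212 with vehicle and 0.262, 0.198 and 0.293 with PSB-KD107, a difference of -0.0080 on the log2 scale (exact permutation p = 1). The bases before Srebf2 are printed here because SREBPs are known to act on this gene itself. They are taken from the RefSeq promoter window (GRCm38.p6, chr15:82147019-82147180, plus strand), and capitals mark motif matches on either strand.
Srebf2: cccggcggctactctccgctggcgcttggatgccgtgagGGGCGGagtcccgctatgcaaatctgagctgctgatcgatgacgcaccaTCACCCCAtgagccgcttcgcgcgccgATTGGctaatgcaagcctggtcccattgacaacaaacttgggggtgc
The marked TCACCCCA, whose first base is at position -162 from the RefSeq start, matches the sterol element core TCACNCCAC without its last letter. That shorter motif was searched after the sequences had been seen, and 4.34% of the 32544 promoter windows held it. The whole core TCACNCCAC was in none of the 12 windows of 7 members and in 1.24% of all windows. The promoter of Stard4 was not used here, so the motif counts do not cover it.

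Scap, the sterol-sensing escort (ENSMUSG00000032485, chr9:110333288-110384950, plus strand), was at 65.4, 78.9 and 80.9 CPM with vehicle and at 63.0, 82.3 and 53.6 CPM with PSB-KD107. Library 2 was the highest of the PSB-KD107 group and above all of the vehicle group, so the groups overlapped. PSB-KD107 over vehicle gave a log2 fold change of -0.18 (SE 0.18, 95% interval -0.62 to 0.26, edgeR adjusted p = 0.789).

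Mbtps1, the protease of the first cut (ENSMUSG00000031835, chr8:119508156-119558735, minus strand), was lower in every PSB-KD107 library. It was at 114, 132 and 145 CPM with vehicle and at 82.7, 102 and 98.4 CPM with PSB-KD107. Every treated library lay below every vehicle library. On the log2 scale the fold change was -0.47 (SE 0.13, 95% interval -0.79 to -0.14), which is 0.723 times the vehicle level, with an adjusted p of 0.374 in edgeR and 0.143 in DESeq2. Without vehicle library 1 DESeq2 gave an adjusted p of 0.0257, and over the 22 alternatives for Mbtps1 the adjusted p ranged from 0.00605 to 1.00. The exact permutation p was 0.1, the smallest this design allows. Mbtps1 had the smallest unadjusted edgeR p of the 8 members and ranked 464 among all genes tested. Mbtps2, which makes the second cut, was at 36.3, 37.1 and 39.8 CPM with vehicle and at 44.9, 42.7 and 47.6 CPM with PSB-KD107. Its groups also did not overlap, but in the other direction, with a log2 fold change of 0.26 (SE 0.10, edgeR adjusted p = 0.488), and the difference between the proteases was not tested.

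Insig1 and Insig2 encode the retention proteins of the endoplasmic reticulum. Insig1 (ENSMUSG00000045294, chr5:28071363-28078662, plus strand) had 7126, 2493 and 2124 raw counts with vehicle and 18391, 8565 and 6202 with PSB-KD107. As CPM these were 182, 71.4 and 65.9 with vehicle and 365, 275 and 171 with PSB-KD107. Vehicle library 1 was 2.76 times vehicle library 4 and lay above PSB-KD107 library 4, so that the groups overlapped, while the other vehicle libraries lay below every treated library. The log2 fold change was 1.35 (SE 0.48, 95% interval 0.18 to 2.51), or 2.54 times the vehicle level, with an adjusted p of 0.467 in edgeR and 0.112 in DESeq2, and the exact permutation p was 0.2. Without vehicle library 1 the log2 fold change was 1.97, with an adjusted p of 0.287 in edgeR and 7.6e-06 in DESeq2, without PSB-KD107 library 4 DESeq2 gave 0.0373, and over its 22 alternatives the adjusted p ranged from 2.4e-07 to 1.00. The SD of log2 CPM between vehicle libraries was larger for Insig1 than for 97.3% of the 8910 genes with a mean of at least 10 CPM.

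Insig2 (ENSMUSG00000003721, chr1:121304353-121332589, minus strand) was at 62.4, 65.0 and 62.1 CPM with vehicle and at 66.4, 60.9 and 76.0 CPM with PSB-KD107. The lowest and the highest library were both treated ones. The groups differed by a log2 fold change of 0.10 (SE 0.11, 95% interval -0.16 to 0.36, edgeR adjusted p = 0.800), and the SD between vehicle libraries was larger than that of only 6.66% of genes. The ratio of Insig1 to Insig2 was 2.91, 1.10 and 1.06 with vehicle and 5.49, 4.50 and 2.24 with PSB-KD107, a log2 difference of 1.35. Vehicle library 1 lay above PSB-KD107 library 4, and the exact permutation p was 0.2 (0.267 after adjustment over 4 ratios). The ratio of Insig1 to Scap was 2.78, 0.905 and 0.815 with vehicle and 5.79, 3.34 and 3.18 with PSB-KD107. Here the groups did not overlap, with a log2 difference of 1.64 and an exact permutation p of 0.1 (0.2 adjusted). Insig1 by itself did overlap. The separation of the ratio rested on Scap, at 53.6 CPM in PSB-KD107 library 4 against 65.4 CPM in vehicle library 1.

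The bases before Insig1 are shown because Insig1 was among the members with the largest values of the fold change (RefSeq window, GRCm38.p6 chr5:28071162-28071362, plus strand), and those before Mylip because it was lower in each treated library (chr13:45389492-45389741, plus strand). Capitals mark the E-box CACGTG, the NF-Y box CCAAT and the GC box GGGCGG on either strand.
Insig1: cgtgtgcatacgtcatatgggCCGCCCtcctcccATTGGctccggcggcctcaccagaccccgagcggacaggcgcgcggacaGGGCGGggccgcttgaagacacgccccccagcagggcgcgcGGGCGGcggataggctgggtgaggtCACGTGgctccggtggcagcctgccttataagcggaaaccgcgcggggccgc
Mylip: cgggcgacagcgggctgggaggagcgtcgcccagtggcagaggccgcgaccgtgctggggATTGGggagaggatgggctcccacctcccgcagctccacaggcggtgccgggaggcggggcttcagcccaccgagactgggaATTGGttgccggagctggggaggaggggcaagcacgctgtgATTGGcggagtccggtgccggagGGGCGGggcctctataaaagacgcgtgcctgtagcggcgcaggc
The Insig1 sequence holds the E-box, a motif that SREBPs can bind, at position -101 from the RefSeq start. The E-box was found in 3 of the 12 member windows and in 7.17% of all windows. These windows belong to 2 members, Insig1 and Scap, and the Scap windows overlap and share the same E-box. The NF-Y box was found in 6 of the 12 (37.4% of all windows), and the GC box in 10 of the 12 (35.9%), and windows of the same gene can overlap. The Mylip sequence holds 3 NF-Y boxes and 1 GC box, and the LXR direct repeat with a 4-base spacer was in no member window and in 0.0215% of all windows. Matches are descriptions of the letters and not evidence of binding.

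Stard4, a cytosolic protein that moves cholesterol between membranes (ENSMUSG00000024378, chr18:33199355-33213862, minus strand), was higher in every PSB-KD107 library and had the largest estimate of the 8. Raw counts were 1811, 446 and 391 with vehicle and 5105, 1808 and 2019 with PSB-KD107. As CPM these were 46.2, 12.8 and 12.1 with vehicle and 101.4, 58.0 and 55.5 with PSB-KD107. The groups did not overlap, and library 1 was the highest in each. The log2 fold change was 1.60 (SE 0.59, 95% interval 0.15 to 3.04), or 3.02 times the vehicle level, with an adjusted p of 0.487 in edgeR and 0.112 in DESeq2, and the exact permutation p was 0.1. Without vehicle library 1 the log2 fold change was 2.52, with an adjusted p of 0.262 in edgeR and 1.6e-10 in DESeq2, and over its 22 alternatives the adjusted p ranged from 1.6e-10 to 1.00. Its SD between vehicle libraries was larger than that of 98.7% of genes.

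Mylip, the ubiquitin ligase that sends receptors of the LDL receptor family to degradation (ENSMUSG00000038175, chr13:45389742-45412022, plus strand), was lower in every PSB-KD107 library. It was at 33.0, 34.9 and 42.6 CPM with vehicle and at 20.1, 25.8 and 32.2 CPM with PSB-KD107. The groups did not overlap, but PSB-KD107 library 4 lay just below vehicle library 1. The fold change on the log2 scale was -0.50 (SE 0.20, 95% interval -0.995 to -0.0045), or 0.707 times the vehicle level, with an adjusted p of 0.528 in edgeR and 0.407 in DESeq2. Without PSB-KD107 library 4 DESeq2 gave an adjusted p of 0.0344 for Mylip, and over its 22 alternatives the adjusted p ranged from 0.00718 to 1.00. The ratio of Stard4 to Mylip was 1.40, 0.368 and 0.287 with vehicle and 5.03, 2.25 and 1.72 with PSB-KD107. Each treated library lay above each vehicle library, with a log2 difference of 2.35 (exact permutation p = 0.1, or 0.2 adjusted). Since Stard4 was higher and Mylip lower without overlap, this separation and its p were fixed in advance. The ratio is thus a description and not a further test. Leaving out each library in turn gave differences from 1.89 to 3.05, the highest without vehicle library 1.

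**Figure D2:**
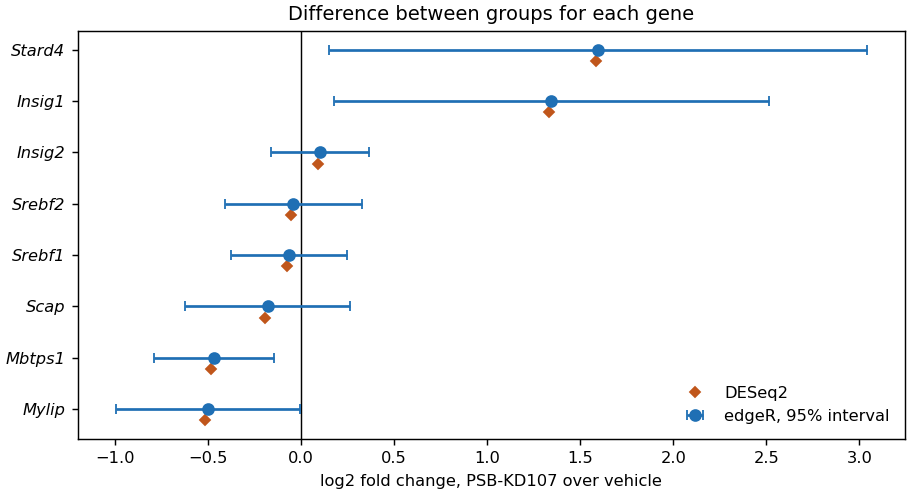
Log2 fold change of each gene, PSB-KD107 over vehicle, from edgeR with its 95% interval (circles and bars) and from DESeq2 (diamonds), with 3 libraries per group. The intervals of Stard4, Insig1, Mbtps1 and Mylip lie on 1 side of zero before adjustment over all genes, and those of the other 4 genes span zero.

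To compare levels between genes, CPM was divided by the length of the merged exons in GENCODE M21 (RPKM). With vehicle, Srebf2 had the highest level (50.1 RPKM ± 5.04, SD, n = 3), followed by Insig1 (34.4 ± 21.1), Insig2 (18.2 ± 0.464), Srebf1 (16.0 ± 2.33), Mbtps1 (12.4 ± 1.5), Mylip (11.4 ± 1.57), Scap (10.1 ± 1.13) and Stard4 (4.24 ± 3.49). Of neighbors in this order, the ranges of 3 libraries were apart only between Insig1 and Insig2, Srebf1 and Mbtps1, and Scap and Stard4. With PSB-KD107, Insig1 came first (87.4 ± 31.5 RPKM), followed by Srebf2 (48.7 ± 8.13), Insig2 (19.5 ± 2.19), Srebf1 (15.3 ± 0.957), Stard4 (12.8 ± 4.62), Mbtps1 (8.95 ± 0.976), Scap (8.91 ± 1.97) and Mylip (8.05 ± 1.88). Here the ranges were apart between Srebf2 and Insig2, Insig2 and Srebf1, and Stard4 and Mbtps1, and overlapped between the other neighbors. Stard4 was last with vehicle and in the fifth place with PSB-KD107.

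Levels over the 6 libraries were compared by the root mean square difference of log2 CPM after centering each gene on its mean. The spread of a gene was not scaled, so genes that vary little come out close whatever their pattern. Between members, the smallest differences were those of Srebf2 and Scap (0.115), Mbtps1 and Mylip (0.145) and Srebf1 and Insig2 (0.159). Insig1 and Stard4 were 0.311 apart, whereas the largest difference was that of Stard4 and Mylip (1.45). Outside the members, the genes most like Insig1 were Dhcr7 (0.107), Fdps (0.153), Slc6a9 (0.182) and Elovl6 (0.183). Among those most like Stard4 were Scd2 (0.127), Elovl6 (0.250) and Lrrc16b (0.253). For Srebf1 they were Eme2 (0.0453), Rilpl1, Mrpl13 and Eri2, and for Mylip Bahcc1 (0.0435), Aff3, Vangl2 and Pkia. These values describe the same 6 libraries that the fold changes came from.

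**Figure D3:**
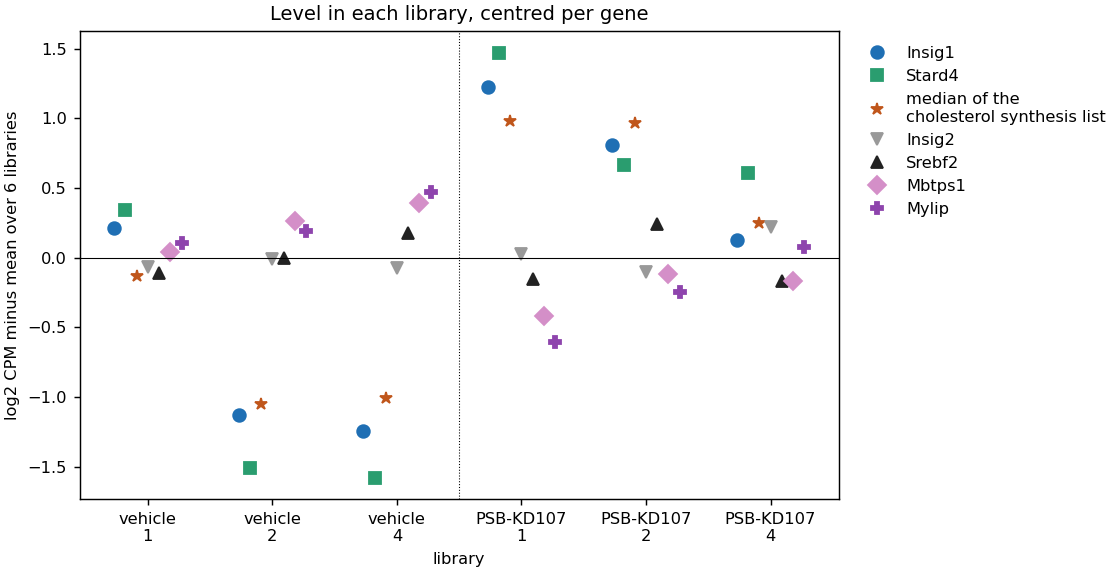
Level in each library as log2 CPM minus the mean over 6 libraries, for 6 genes and for the median of the cholesterol synthesis list. Vehicle libraries 2 and 4 hold the lowest Insig1, Stard4 and list values, vehicle library 1 lies between them and PSB-KD107 library 1, and Insig2 and Srebf2 stay near zero. Replicates of a group have no order.

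The other genes of the pathway were described by lists, beside a median log2 fold change of -0.0007 over all genes tested. The list of 27 partners in SREBP processing and retention also held factors that act on nuclear SREBP, such as Lpin1 and Gsk3b. In this list the fold change was positive for 11 genes and negative for 16 (median log2 value -0.03). Unadjusted p-values under 0.05 in edgeR were found for 3 higher genes (Lpin1, Gsk3b and Mbtps2) and 0 lower ones. The shares over all genes tested were 6.47% higher and 2.93% lower. DESeq2 called 1 higher, against 2.10% of the genes to which it gave an adjusted p, while edgeR called 0. Lpin1, a phosphatidate phosphatase known to restrain nuclear SREBP, was at 29.4, 26.2 and 26.1 CPM with vehicle and at 56.6, 37.4 and 55.5 CPM with PSB-KD107. The groups did not overlap (log2 fold change 0.87, SE 0.18, adjusted p = 0.238 in edgeR and 0.00914 in DESeq2). Gsk3b, a kinase that marks nuclear SREBP for degradation, had a log2 fold change of 0.37 (edgeR adjusted p = 0.415), and Rnf139, a ubiquitin ligase of the endoplasmic reticulum, one of -0.22 (edgeR adjusted p = 0.687) with overlapping groups.

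Sterol transfer and storage was covered by 22 genes, 13 with a positive and 9 with a negative fold change (median log2 value 0.07). Of these, 7 higher genes and 1 lower gene had an unadjusted p under 0.05, against 6.47% and 2.93% of all genes tested. DESeq2 called 4 higher, against 2.10% of genes, while edgeR called 0. Npc2, which takes cholesterol out of the lysosome, was at 120, 89.3 and 85.5 CPM with vehicle and at 268, 211 and 274 CPM with PSB-KD107. The groups were far apart (log2 fold change 1.35, SE 0.18, adjusted p = 0.165 in edgeR and 4.3e-07 in DESeq2). Nceh1, which splits cholesterol esters, had a log2 fold change of 0.96, and Osbpl8 and Osbpl1a, oxysterol-binding protein relatives, had 0.83 and 0.72, with adjusted p between 0.184 and 0.238 in edgeR and between 6.4e-05 and 0.00729 in DESeq2. For these 4 genes the groups did not overlap.

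In the LDL receptor family and its handling, 12 of 18 genes had a positive and 6 a negative fold change (median log2 value 0.08). Vldlr, Lrp8 and Scarb1 (3 higher and 0 lower genes) had an unadjusted p under 0.05, against 6.47% and 2.93% of all genes tested. DESeq2 called 1 higher, against 2.10% of genes, while edgeR called 0. Vldlr, a lipoprotein receptor known as a target of the MYLIP ligase, was at 12.1, 9.34 and 5.58 CPM with vehicle and at 40.4, 41.2 and 41.2 CPM with PSB-KD107. The treated libraries were nearly equal and all above the vehicle ones (log2 fold change 2.18, SE 0.29, adjusted p = 0.165 in edgeR and 7.3e-10 in DESeq2). Lrp8, also a known MYLIP target, was at 14.8, 6.56 and 5.46 CPM with vehicle and at 60.8, 28.2 and 10.5 CPM with PSB-KD107. Its groups overlapped, since vehicle library 1 lay above PSB-KD107 library 4 (log2 fold change 1.89, SE 0.70, adjusted p = 0.487 in edgeR and 0.0868 in DESeq2). Scarb1, the scavenger receptor for HDL, had a log2 fold change of 0.89 with overlapping groups, and Ube2d1, a ubiquitin-conjugating enzyme, one of -0.25 without overlap (edgeR adjusted p = 0.516 and 0.555).

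**Figure D4:**
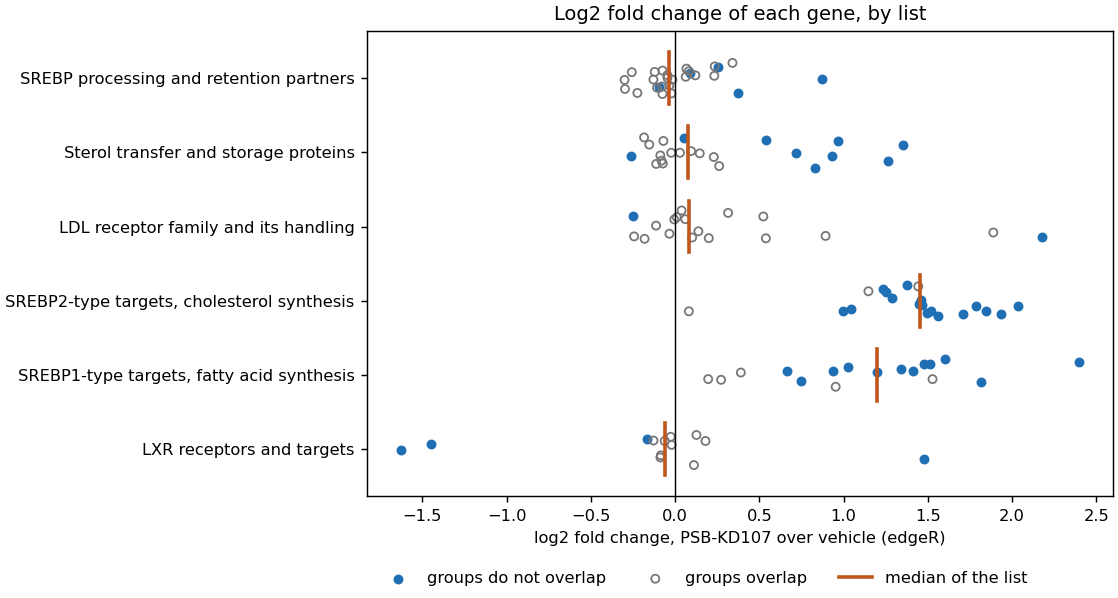
Log2 fold change of each tested gene, PSB-KD107 over vehicle from edgeR, in 6 lists around the SREBP pathway. Filled points are genes whose groups of 3 libraries do not overlap, open points overlap, and the orange line is the median of the list. The medians of the cholesterol (1.45) and fatty acid (1.20) synthesis lists lie to the right, and those of the other lists lie between -0.06 and 0.08.

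The cholesterol and fatty acid synthesis lists, written as SREBP targets, had positive fold changes, beside values near 0 for Srebf1 and Srebf2. The smallest log2 values in these lists were 0.08 and 0.20, and genes outside them were not counted as targets here. Of all genes tested, 49.9% were higher and 6.47% were higher at an unadjusted p under 0.05, and DESeq2 called 2.10% higher. Both lists that follow were chosen with earlier results of these data known, so their counts are descriptions and not a test. Of 20 genes of cholesterol synthesis, 20 were higher (median log2 value 1.45), 19 at an unadjusted p under 0.05 and 14 called by DESeq2, while edgeR called 0. Of 17 genes of fatty acid synthesis, 17 were higher (median 1.20), 12 at an unadjusted p under 0.05 and 8 called by DESeq2, again with 0 called by edgeR. Those with the smallest p were Cyp51 (1.47), Idi1 (1.85), Msmo1 (1.56) and Sqle (1.23) in the first list, and Acss2 (1.48), Aacs (0.94), Acaca (1.34) and Acacb (0.75) in the second, with edgeR adjusted p between 0.184 and 0.253. Vehicle library 1, where Insig1 and Stard4 were highest among the vehicle libraries, was also the highest vehicle library for 19 of the 20 cholesterol genes (95%) and for 12 of the 17 fatty acid genes (70.6%), against 44.2% of all genes tested. PSB-KD107 library 1 was the highest treated library for 12 of the 20 (60%) and 12 of the 17 (70.6%), against 30.1% of all genes tested. What set the libraries numbered 1 apart was not tested.

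Mylip belongs to the known LXR targets, and of 13 other LXR receptors and targets tested, 4 had a positive and 9 a negative fold change (median log2 value -0.06). Plin2 was higher and Abcg4 and Abca1 were lower at an unadjusted p under 0.05 (1 and 2 genes). The shares over all genes tested were 6.47% and 2.93%. DESeq2 called 1 higher, against 2.10% of genes, while edgeR called 0. Plin2, a lipid droplet coat that other factors also control, was at 30.8, 29.3 and 26.3 CPM with vehicle and at 104, 54.7 and 81.8 CPM with PSB-KD107. Its groups did not overlap (log2 fold change 1.48, SE 0.24, adjusted p = 0.184 in edgeR and 3.6e-05 in DESeq2). Abca1, the cholesterol exporter, was low in both groups, at 2.58, 1.35 and 1.68 CPM with vehicle and at 0.616, 0.192 and 0.990 CPM with PSB-KD107. The groups did not overlap (log2 fold change -1.63, SE 0.60, adjusted p = 0.484 in edgeR and 0.183 in DESeq2). Abcg4, a related exporter, was at most 0.408 CPM in any library, and Rxrb, a partner receptor of LXR, had a log2 fold change of -0.16 without overlap (edgeR adjusted p = 0.644).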

How the data were processed

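Polyadenylated RNA of mdx myoblasts was sequenced in paired-end mode and aligned by the authors with STAR to the mouse genome (mm10), and they deposited raw counts per gene, with no normalization. The counting program, its annotation and its strand setting are not given in the sources used here. Groups came from the sample records and column names. In the table each group has libraries 1, 2 and 4, whereas the records end in 3, so library 4 was placed in its group by name and tied to no record. Replicates of cells from 3 mice could share animals between groups, which the labels do not tie to libraries.

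Genes passing filterByExpr were compared with edgeR 4.0.16 (R 4.3.3, quasi-likelihood test, TMM factors, Benjamini-Hochberg adjustment, threshold 0.05). SE is the log2 fold change divided by the root of F. DESeq2 1.42.0, limma-voom (limma 3.58.1), RLE factors, no filter, a block by library number and leaving out each library were alternatives. Library ratios and permutation tests (exact, two-sided) used CPM with an offset of 0.1 in Python 3.11.15 with pandas 2.3.3 and scipy 1.17.1. A floor of 3 counts covers counting error only. Coordinates and exon lengths came from GENCODE M21, and promoter windows from RefSeq (GRCm38.p6).

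The members and lists were chosen with earlier results of these data known, and the lists were written from general knowledge. Of 28 processing partners 27 were found by symbol, of 19 LDL receptor genes 18, and of 16 LXR genes 13 were tested. The genes named were every member, the 4 of each pathway list with the smallest edgeR p, and the 4 most like Insig1, Stard4, Srebf1 and Mylip. An item that this rule names is not reported here. Genes named outside the rule are the markers, the overlapping gene Rai1 and list members given as counts. On simulated counts of 14165 genes for this comparison, edgeR recovered 78% of genes changed 4-fold and 18% of those changed 2-fold, with 7 false among 103 calls. DESeq2 recovered 93% and 52%, with 63 false among 208. Each gene was drawn independently, whereas deviations in the data were shared between libraries. The rates are averages over genes and do not describe single members.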

Additional observations from a re-analysis of the deposited data

How the results depend on the processing

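Insig1, Stard4, Mbtps1 and Mylip kept their direction in 22 of 22 alternatives each, whereas Srebf2 turned in 8, Srebf1 and Insig2 in 3 and Scap in 2. All alternatives used the same 6 libraries or fewer of them. For Stard4, Mbtps1 and Mylip, whose groups did not overlap, a turn was hardly possible, so the kept direction adds no support. The number of genes called was 0 in the main edgeR test, 8 with no filter on low counts and 407 with DESeq2. Leaving out each library in turn gave 0 genes and 0 members with edgeR, and between 164 and 764 genes and 0 and 3 members with DESeq2 (3 without vehicle library 1, being Stard4, Mbtps1 and Insig1, and 2 without PSB-KD107 library 4, being Mylip and Insig1). Members at an unadjusted p under 0.05 numbered 1 to 3 with edgeR and 2 to 4 with DESeq2. The log2 fold change ranged with edgeR from 1.05 to 1.97 (Insig1), 1.24 to 2.52 (Stard4), -0.56 to -0.38 (Mbtps1), -0.68 to -0.36 (Mylip), -0.15 to 0.054 (Srebf1) and -0.19 to 0.040 (Srebf2). With DESeq2 it ranged from -0.16 to 0.047 (Srebf1), -0.19 to 0.028 (Srebf2) and -0.0030 to 0.17 (Insig2). The ratio of Srebf1 to Srebf2 ranged from -0.13 to 0.17 on the log2 scale. Median log2 fold changes ranged from 0.040 to 0.18 (sterol transfer), 0.034 to 0.23 (LDL receptor family) and -0.12 to 0.062 (LXR). Limma-voom gave 0.12 for sterol transfer. Without both libraries numbered 1, chosen after seeing the data, Srebf1 was 0.077 and the sterol transfer median 0.13. The causes were not tested.

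Deviations from the group means correlated at 0.63 for number 1, 0.52 for number 2 and -0.13 for number 4 over 14165 genes, so the numbers were not taken as pairing, and not every library correlated best with its own number. A replicate block on libraries 1 and 2 called 2456 genes (9.08% of genes higher and 7.97% lower) and 4 members, with Insig1 at 1.47, Stard4 at 1.61, Mbtps1 at -0.42 and Mylip at -0.58, Srebf2 at 0.10, Scap at 0.0031, Insig2 at -0.0022, and medians of 0.070 (processing partners) and 0.063 (LXR). The same 4 libraries with no block, added after seeing the data, called 0 genes, with 1 member at an unadjusted p under 0.05, Srebf2 at 0.11, Scap at 0.0095, Insig2 at -0.0025 and medians of 0.067 and 0.065. The block over all 6 libraries called 0 genes in edgeR, with a sterol transfer median of 0.11, and 638 genes (3.17% higher and 1.59% lower) and 4 members in DESeq2.

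With 3 libraries per group, edgeR recovered 18% of simulated 2-fold changes in counts drawn independently for each gene. The members had at least 391 counts in every library, and Srebf1 and Rai1 share exon bases on opposite strands.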
